A study of Mus musculus with 12 samples.

Results

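The distance between a neural stem cell and an oligodendrocyte precursor cell was followed gene by gene before and after both received an oncogenic HRas. The comparison uses 8 of the 12 arrays of the series, 2 in each of 4 groups. For each of 12835 genes the parental gap is the log2 level in OPC minus that in NSC, and the line gap is the level in OPCL61 minus that in NSCL61. The difference of changes is the change from NSC to NSCL61 minus the change from OPC to OPCL61, which equals the parental gap minus the line gap. Of the 12835 genes, 1835 had a parental gap that closed in the lines, 188 had one that narrowed, 133 had one that crossed to the opposite sign, 307 had one that stayed, 31 had one that widened and 392 had a gap that opened only between the lines.

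All groups are BL6 mouse cells of p53-/- genotype, taken from brain at embryonic day 14.5. NSC are neural stem cells of the telencephalon, grown as spheres in serum-free medium with PDGF and bFGF. OPC are oligodendrocyte precursor cells, derived from such NSC cultures with PDGFAA, bFGF and 0.25% FCS and purified by immunopanning. NSCL61 and OPCL61 are the stable lines obtained from them after electroporation with an HRasL61 and EGFP plasmid together with pBabe-neo, selection in 0.5 mg/ml neomycin and sorting for GFP. The labels list 10 ng/ml PDGF for NSC and NSCL61. For OPC and OPCL61 they list 10 ng/ml PDGFAA, 2 ng/ml bFGF and 0.25% FCS. Serum and growth factors thus differ within both gaps and cannot be told apart from cell type. The remaining 4 arrays, of astrocytes (AST) and their HRasL61 line (ASTL61), both in 10% FCS, entered the same model for the estimate of spread. The labels give no electroporation, selection or sorting for the parents, so HRasL61 and these steps cannot be told apart. The labels do not state that the arrays of a group came from separate cultures or clones, and p-values then measure only the spread between these samples, which may be technical. The Hras and Trp53 transcripts were not analysed here.

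HRas is a small GTPase that passes signals from growth factor receptors to the MAP kinase and PI3 kinase pathways, and the L61 form is held in its active, GTP-bound state. Neural stem cells are known for Sox2 and Notch signalling, while oligodendrocyte precursors are known for Olig1, Olig2, Sox10 and the PDGF receptor and go on to make myelin. Loss of p53 together with an active Ras pathway is a common way to model glioma in mice.

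The OPC label and the NSC label each matched only some of their markers. Over the 17 of 19 OPC markers that passed the filter, the mean log2 level was 10.02 and 10.49 in the OPC arrays and 5.03 and 5.14 in NSC. In 13 of the 17 OPC was higher by at least 1, but Sox10, Pdgfra, Cspg4 and Vcan differed by less. Sox10, Pdgfra and Cspg4 had means of 6.44, 11.57 and 8.255 in OPC and 6.17, 10.64 and 8.03 in NSC. The filter kept a gene where at least 1 group mean lay above 5.183, the median of all values on the arrays. Sox2, the transcription factor that defines neural stem cells, had a log2 level of 4.41 and 6.79 in the NSC arrays against 11.99 and 11.89 in OPC. Prom1, a surface marker of neural stem cells, had 4.54 and 3.68 in NSC, while Nes, the intermediate filament nestin, had 8.37 and 8.15. Over the 12 of 13 pericyte and fibroblast genes that passed the filter, the mean level was 9.88 and 10.2 in the NSC arrays, against 5.58 and 5.59 in OPC. Pdgfrb, for example, had 11.43 and 11.21 in NSC. The corresponding means were between 5.52 and 5.59 in NSCL61 and between 5.23 and 5.56 in OPCL61. Their part in the results below was not tested. In these bulk samples fewer cells of a type and less RNA per cell cannot be told apart.

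Promoters of 4 genes show the sequence that was searched beside the values. They were chosen after the values were seen, because their genes stand for closed gaps (Anxa2, Efemp1) and for opened gaps (Mgst2, Il5ra) and because each holds the AP-1 motif TGANTCA. AP-1 is the Fos and Jun dimer that acts below the MAP kinases. Each line gives the 250 bases before the start of transcription from RefSeq, assembly GRCm38.p6, read 5′ to 3′ on the gene's strand, with the motif in capitals. Anxa2 lies at chr9:69453433-69453682 (plus strand), Efemp1 at chr11:28852955-28853204 (plus strand), Mgst2 at chr3:51660929-51661178 (plus strand) and Il5ra at chr6:106749038-106749287 (minus strand).
Anxa2: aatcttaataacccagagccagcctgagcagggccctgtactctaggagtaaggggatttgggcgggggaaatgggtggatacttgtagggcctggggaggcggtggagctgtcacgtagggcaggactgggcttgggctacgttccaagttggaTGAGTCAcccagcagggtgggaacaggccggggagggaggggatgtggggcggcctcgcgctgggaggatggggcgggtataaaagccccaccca
Efemp1: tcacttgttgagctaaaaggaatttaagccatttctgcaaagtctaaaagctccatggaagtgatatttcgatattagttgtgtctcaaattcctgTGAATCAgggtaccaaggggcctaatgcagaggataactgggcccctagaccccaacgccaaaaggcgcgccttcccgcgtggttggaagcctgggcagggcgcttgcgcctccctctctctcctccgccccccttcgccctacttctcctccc
Mgst2: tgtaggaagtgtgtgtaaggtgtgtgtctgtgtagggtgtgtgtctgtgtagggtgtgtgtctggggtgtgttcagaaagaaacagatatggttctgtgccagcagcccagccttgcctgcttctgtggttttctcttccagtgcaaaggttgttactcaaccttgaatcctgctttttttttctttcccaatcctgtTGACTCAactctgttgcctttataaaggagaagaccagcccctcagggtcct
Il5ra: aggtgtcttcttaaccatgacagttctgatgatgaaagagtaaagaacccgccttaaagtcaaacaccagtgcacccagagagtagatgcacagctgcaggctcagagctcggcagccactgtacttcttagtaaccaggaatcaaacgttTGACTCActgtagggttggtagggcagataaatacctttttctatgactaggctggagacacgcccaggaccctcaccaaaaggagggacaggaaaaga
The levels of all 4 genes follow below. Promoter entries were found for 10331 of the 12835 genes, in windows of 250 bases before to 50 bases after the start, and both strands were searched. A gene with several entries was counted when any of them held the motif. TGANTCA was found for 651 of the 10331 genes (6.3%). It was found for 100 of 1425 closed genes with an entry (7.02%), 22 of 240 stayed genes (9.17%) and 32 of 299 opened genes (10.7%). ACAATG, the core motif of the Sox family, was found for 940 of all genes with an entry (9.1%) and for 142 of the closed ones (9.96%). A match is a description of the letters and not a binding site. Neither motif was in these windows for S100a6, Anxa1, Gpm6a or Nrcam.

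The lines were closer to each other than their parents were, without being alike. The parents differed in 3161 genes (24.6% of those tested) and the lines in 1321 (10.3%), where a gene is called when limma's Benjamini-Hochberg adjusted p is below 0.05 and the log2 difference is at least 1, or 2-fold. OPC was higher in 1587 of the parental gaps (12.4% of genes tested) and NSC in 1574 (12.3%). The difference of changes itself was called in 3097 genes (24.1%). Over all genes the root mean square gap was 1.43 between the parents and 0.793 between the lines. Their ratio was 0.556, and the 16 sets of 1 array per group gave ratios from 0.548 to 0.591.

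Of the 3161 called parental gaps, 2968 (93.9%) were smaller in the lines, and in the median 13.1% of the gap remained. Gaps chosen for their size are likely to be smaller in a second comparison. Chosen in the lines instead, 831 of the 1321 called gaps (62.9%) were smaller in the parents, and the median parental gap was 44.2% of the line gap. Closed means that the parental gap and the difference of changes were called in the same direction and that the line gap was under 1 in size and not called. By this rule 1835 genes closed (14.3% of those tested, 58.1% of the called parental gaps), with OPC higher before in 950 (7.40%) and NSC higher in 885 (6.90%). Their median gap went from 2.03 in size to 0.277. In 646 of them (35.2%) the lower parent lay below 5.183, where signal may be background, so the parental gap and the difference of changes of such genes may be lower bounds. The 95% interval of the line gap lay within ±1 in 1280 of them (69.8%), and for the others it reached a 2-fold difference. Of the 116 genes with a parental gap of at least 6, 64 (55.2%) closed and 35 (30.2%) narrowed. Across genes the parental and line gaps, which share no array, had a Pearson correlation of 0.334 and a Spearman correlation of 0.305 (n = 12835 genes, which are not independent replicates).

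**Figure D1:**
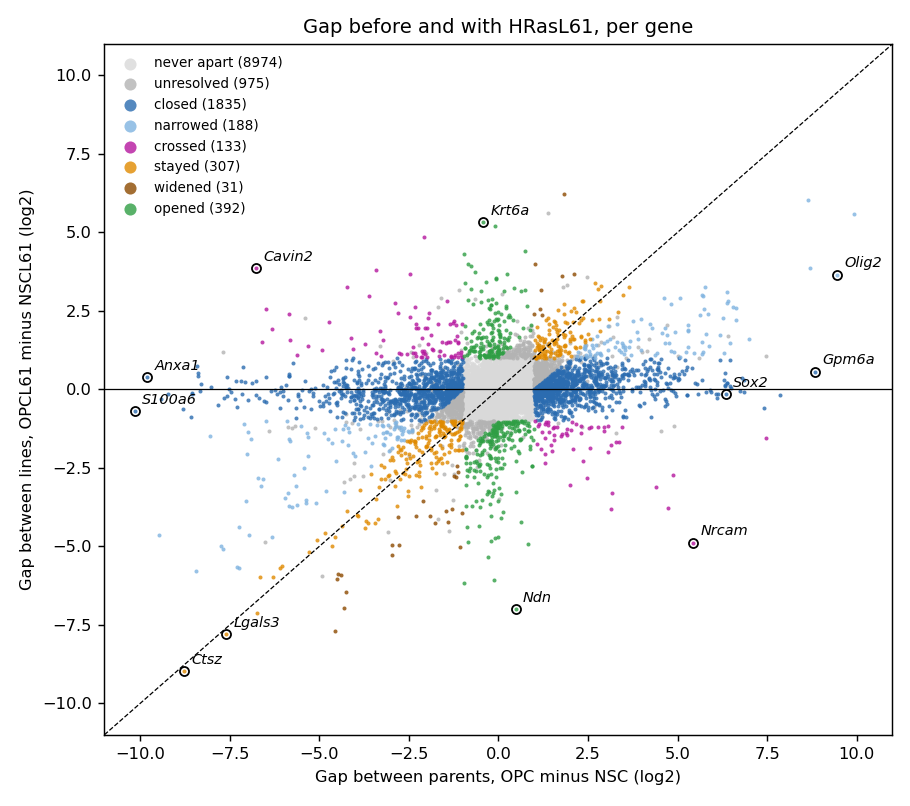
Each point is a gene, with the parental gap (OPC minus NSC, log2) on the horizontal axis and the line gap (OPCL61 minus NSCL61, log2) on the vertical axis, coloured by whether the gap closed, narrowed, crossed, stayed, widened or opened. Closed genes lie along the horizontal line at 0, stayed genes such as Ctsz along the diagonal, and Nrcam sits at 5.44 before and -4.88 after.

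The distances between single arrays show the same scale. The SD over genes of the difference between an NSC and an OPC array was 1.42 to 1.48 in the 4 pairs, and between an NSCL61 and an OPCL61 array it was 0.809 to 0.840. The arrays within a group differed by 0.193 in NSCL61, 0.282 in OPC, 0.415 in OPCL61 and 0.416 in NSC. The pairs of lines were therefore closer than the pairs of parents, and still farther apart than replicate arrays.

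Gaps closed more often through a change in the OPC line than in the stem line. Of the 1835 closed genes, 921 (50.2%) closed on the OPC side, meaning that OPCL61 left the OPC level by a called change and NSCL61 had no called change from NSC. A further 450 (24.5%) closed on the NSC side and 141 (7.68%) on both sides, with the lines moving toward each other. In the rest both changed in the same direction or the side was not resolved. For genes higher in OPC the OPC side had 607, the NSC side 121 and both sides 56. For genes higher in NSC the split was 314, 329 and 85. The excess of the OPC side thus lay in genes that OPC expressed more highly.

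**Figure D2:**
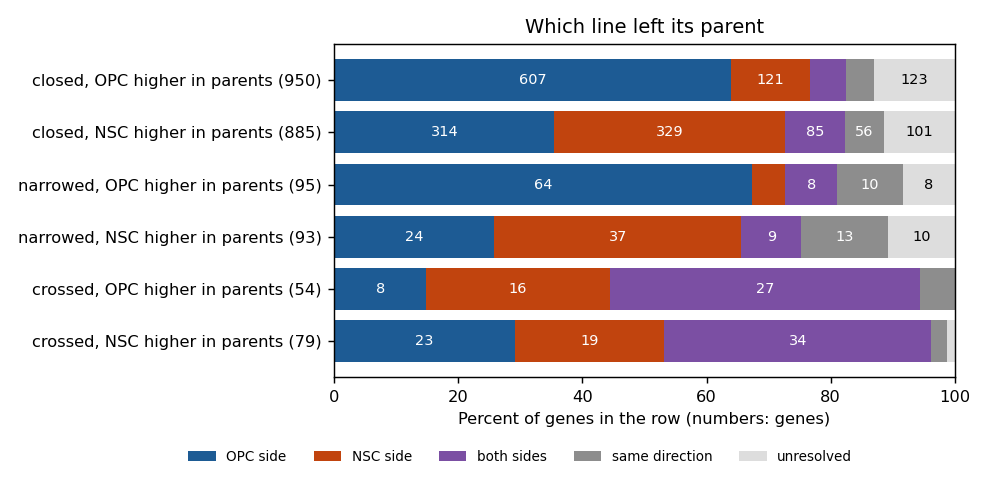
Stacked bars give the percent of closed, narrowed and crossed genes by the line that left its parent. Genes higher in OPC and genes higher in NSC have separate bars, and numbers in the bars are genes. Among closed genes the OPC side makes up 607 of the 950 higher in OPC and 314 of the 885 higher in NSC.

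The 607 genes that were higher in OPC and closed on the OPC side had a median change of -1.88 in OPCL61. Among them Gpm6a had the largest difference of changes. Gpm6a, a neuronal and glial membrane glycoprotein, had log2 levels of 11.5 and 11.7 in OPC, 3.69 and 3.77 in OPCL61, 2.81 and 2.66 in NSC and 3.12 and 3.20 in NSCL61. OPC stood alone, and the 6 other arrays lay between 2.66 and 3.77. The parental gap of 8.85 ± 0.12 (SE) became 0.57 ± 0.12, still with a limma adjusted p of 0.00893, and the difference of changes was 8.28 ± 0.18 (limma adjusted p = 1.38e-08). Both lines and NSC lay below 5.183, so whether a difference between the lines remained in Gpm6a cannot be read from these signals.

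Rlbp1, a retinaldehyde-binding protein also found in oligodendrocyte precursors, had 9.80 and 10.1 in OPC and 3.25 and 3.06 in OPCL61. Its NSC arrays had 3.11 and 3.13 and its NSCL61 arrays 3.19 and 3.29, so both lines lay near the NSC level. Bcas1, a marker of myelinating oligodendrocytes in formation, had 11.6 and 12.1 in OPC and lay between 5.05 and 5.17 in the 6 other arrays of the comparison. Scrg1, a secreted protein of the glial lineage, had 9.99 and 10.4 in OPC and lay between 3.34 and 3.77 elsewhere. The difference of changes was 6.93 ± 0.19 for Rlbp1, 6.80 ± 0.24 for Bcas1 and 6.44 ± 0.24 for Scrg1 (limma adjusted p = 7.43e-08, 2.20e-07 and 2.20e-07). That of Bcas1 ranged from 4.12 to 7.07 over 17 alternatives of the processing. In this set of 607 genes, 256 (42.2%) met at a level below 5.183, as did Gpm6a, Rlbp1, Bcas1 and Scrg1.

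The 314 genes that were higher in NSC and closed on the OPC side had a median rise of 1.93 in OPCL61. Among them the 4 with the largest differences of changes and no overlap between the parents' arrays were S100a6, Timp1, Tm4sf1 and Ahnak. S100a6, a small calcium-binding protein, had 3.38 and 3.49 in OPC and 12.8 and 13.2 in OPCL61. NSC had 13.6 on both arrays and NSCL61 13.7 on both. OPC again stood alone, and OPCL61 ended slightly below NSCL61, with a line gap of -0.69 ± 0.14 (limma adjusted p = 0.00535). The parental gap had been -10.15 ± 0.14 and the difference of changes was -9.47 ± 0.19 (limma adjusted p = 1.38e-08). With S100a6 below 5.183 in OPC both sizes may be lower bounds, as may those of Timp1, Tm4sf1 and Ahnak, and OPC lay below that level in 60 of the 314 genes (19.1%).

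Timp1, an inhibitor of matrix metalloproteinases, had 3.96 and 4.22 in OPC against 12.5 and 11.7 in OPCL61, 12.08 and 11.96 in NSCL61 and 12.5 and 11.8 in NSC. Tm4sf1, a tetraspanin-like surface protein, had 4.12 and 3.93 in OPC and 12.3 and 12.5 in OPCL61, and its NSCL61 arrays had 12.6 and 12.6. Its difference of changes of -7.365 ± 0.47 ranged from -7.50 to -3.47 over 17 alternatives. The NSCL61 and OPCL61 arrays of Timp1 overlap, and those of Tm4sf1 were each slightly lower in OPCL61. Ahnak, a very large scaffold protein, had 3.16 and 3.32 in OPC, 9.65 and 10.3 in OPCL61 and 10.6 and 10.3 in NSCL61. A pair of other Ahnak probe sets had parental gaps of -0.70 and -0.57, far smaller than the -7.83 of the probe set used.

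Anxa2, an annexin that binds S100a10 at membranes, followed S100a6. It had 7.42 and 6.42 in OPC, 12.98 and 13.32 in OPCL61, 13.6 and 13.5 in NSCL61 and 13.5 and 13.4 in NSC. The difference of changes was -6.08 ± 0.40 (limma adjusted p = 5.15e-06). Another Anxa2 probe set had a parental gap of only -0.62.

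On the NSC side, 329 genes fell from a higher NSC level toward that of OPC, with a median change of -2.14 in NSCL61. The 4 named by the largest differences of changes were matrix genes. Lox, which crosslinks collagen and elastin, had 13.2 and 13.3 in NSC, 4.22 and 4.23 in NSCL61, 4.12 and 3.57 in OPC and 4.2 and 3.63 in OPCL61. NSC alone was high, and the other 3 groups lay below 5.183. Lox fell by 9.04 ± 0.24 in NSCL61 (limma adjusted p = 2.35e-08). Col5a2 fell by 8.95 ± 0.18 and Col1a2 by 8.41 ± 0.20 (limma adjusted p = 7.21e-09 and 1.09e-08). Efemp1, the matrix protein fibulin-3, had 11.3 and 11.3 in NSC and 3.09 and 2.89 in NSCL61, with 2.99 and 2.87 in OPC and 3.45 and 3.56 in OPCL61. In this set 149 of 329 genes (45.3%) met below 5.183.

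The 121 genes that were higher in OPC and closed on the NSC side had a median rise of 1.71 in NSCL61. Sox2 and Pou3f3 were among them. Sox2 had 11.8 and 11.7 in NSCL61, 11.6 and 11.6 in OPCL61 and 11.99 and 11.89 in OPC, above both NSC arrays. It rose by 6.16 ± 0.57 in NSCL61 (limma adjusted p = 3.87e-05), and its line gap was -0.14 ± 0.57. Pou3f3, a POU-domain factor of neural progenitors, had 4.35 and 4.38 in NSC, 9.71 and 9.78 in NSCL61, 10.7 and 10.6 in OPC and 10.7 and 9.85 in OPCL61. Its difference of changes of 5.79 ± 0.33 ranged from 3.77 to 6.21 over 17 alternatives. Bex4, a small brain-expressed protein, had 4.56 and 3.66 in NSC and lay between 9.97 and 10.3 in the other groups. Mgst1, a membrane glutathione transferase, had 7.73 and 3.16 in NSC, 10.4 and 9.81 in NSCL61, and values from 9.84 to 11.1 in OPC and OPCL61. Its NSC arrays disagree by more than 4 units. Its difference of changes of 5.37 ± 1.55 (limma adjusted p = 0.0224) ranged from 3.09 to 7.66 over 17 alternatives, with an adjusted p from 1.12e-05 to 0.0698 that missed the threshold in 6 of them.

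In 141 genes both lines moved toward each other. Anxa1, an annexin induced by glucocorticoids, had 13.6 and 13.6 in NSC, 12.1 and 12.2 in NSCL61, 3.89 and 3.68 in OPC and 12.3 and 12.7 in OPCL61. Nearly all of the movement was in OPCL61, which rose by 8.73 ± 0.17, while NSCL61 fell by 1.45 ± 0.17 (limma adjusted p = 2.95e-09 and 0.000185). The line gap was 0.39 ± 0.17 with a limma adjusted p of 0.133. The difference of changes of Anxa1 was -10.18 ± 0.24 (limma adjusted p = 2.95e-08), and a second probe set gave -5.13.

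Other genes also met between the levels of the parents. Ugt8a, the enzyme of galactocerebroside synthesis in myelin, had 2.85 and 2.51 in NSC, 6.82 and 6.84 in NSCL61, 10.3 and 10.8 in OPC and 5.99 and 7.28 in OPCL61. Sox6, a transcription factor of oligodendrocyte precursors, had 3.77 and 3.98 in NSC, 6.07 and 6.02 in NSCL61, 10.6 and 10.9 in OPC and 6.67 and 6.03 in OPCL61. Tox3, an HMG-box protein, had 8.50 and 8.08 in NSCL61 and 7.28 and 8.09 in OPCL61, while NSC had 2.93 and 2.99 and OPC 10.35 and 10.4. The OPCL61 and NSCL61 arrays overlap in all 3 genes and lie between the parents. Among the matrix genes, Col3a1 (collagen III) had 7.80 and 8.48 in NSCL61 and 8.12 and 6.92 in OPCL61, between NSC at 13.2 and 12.8 and OPC at 4.40 and 4.02.

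**Figure D3:**
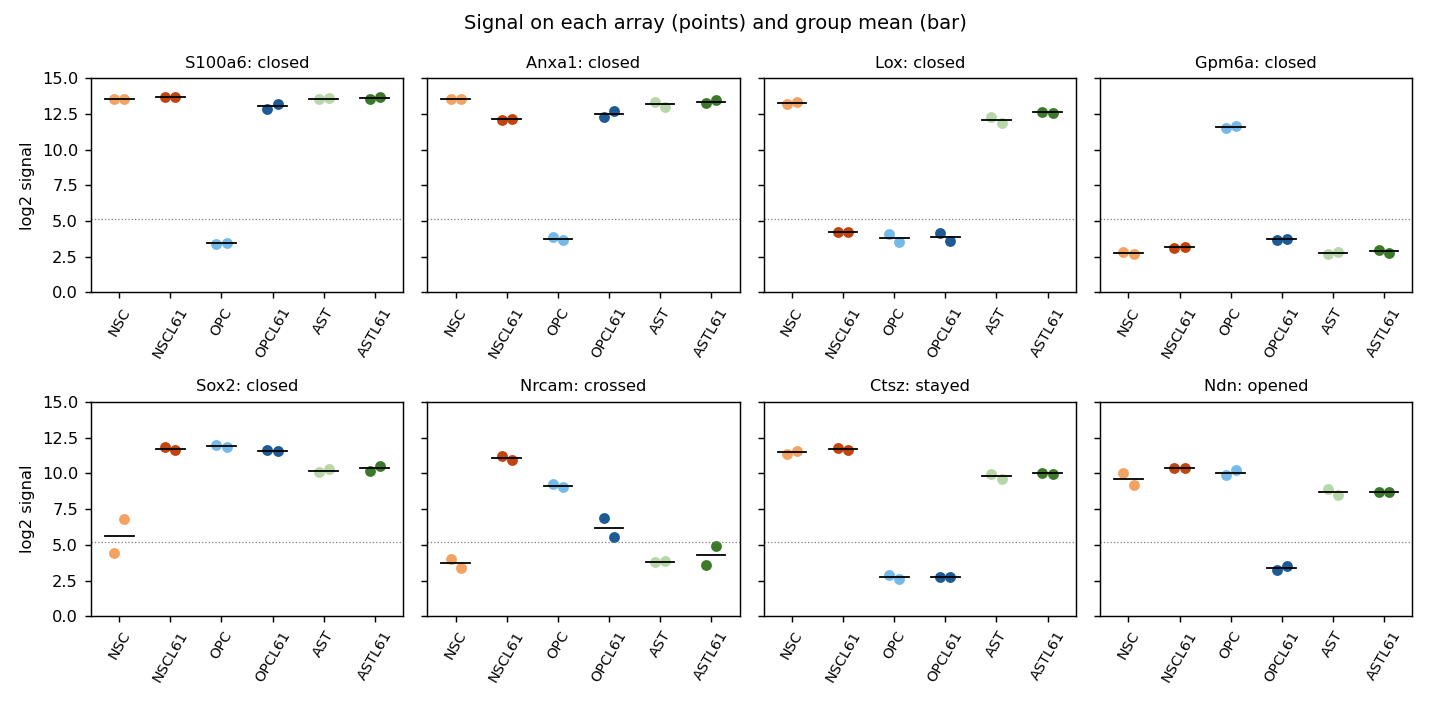
Points give the log2 level of S100a6, Anxa1, Lox, Gpm6a, Sox2, Nrcam, Ctsz and Ndn on each of the 12 arrays by group, and the dotted line marks 5.183, the median of all values. S100a6, Anxa1 and Gpm6a leave the OPC level in OPCL61, Lox and Sox2 leave the NSC level in NSCL61, Ctsz keeps its gap and Ndn is low only in OPCL61.

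Gene lists are described over the members that passed the filter, which favours members high in at least 1 group, so their counts are descriptions only. Over all genes 24.6% had a called parental gap. Of these gaps 58.1% closed, 5.95% narrowed, 4.21% crossed, 9.71% stayed and 21.1% were unresolved. Of 17 measured OPC markers, 13 were higher in OPC than in NSC, of which 6 closed, 6 narrowed and 1 crossed, and the median gap over the list went from 6.18 to 0.22. The medians over all genes were -0.01 and 0.01. Gpr17, Lhfpl3, Pcdh15, Sox8, Rlbp1 and Scrg1 closed. Sox10, Pdgfra, Cspg4 and Vcan had no called gap in either comparison. Pdgfra, the PDGF receptor, had 10.52 and 10.77 in NSC and 11.29 and 11.85 in OPC. It fell in both lines, by 3.62 ± 0.44 in NSCL61 and 3.98 ± 0.44 in OPCL61 (limma adjusted p = 0.000214 and 8.04e-05).

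The narrowed OPC markers kept a difference between the lines. Olig2, the bHLH factor of the lineage, had 12.3 and 12.2 in OPC and 6.82 and 5.90 in OPCL61, with 2.96 and 2.69 in NSC and 2.75 and 2.67 in NSCL61. OPCL61 thus lies between OPC and the stem groups without overlap. Olig2's line gap of 3.65 ± 0.25 (limma adjusted p = 9.90e-06) compares with a parental gap of 9.45 ± 0.25. Olig1, named after its values were seen, had 13.86 and 14.04 in OPC, 9.18 and 8.89 in OPCL61 and 3.43 and 3.45 in NSCL61. Narrowed genes numbered 188 in all (1.46% of those tested). Fabp7, a fatty acid-binding protein of radial glia, also kept most of its gap, from 8.63 ± 0.49 to 6.03 ± 0.49.

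Gatm, Col8a1 and Filip1l narrowed from both sides, Fut9 narrowed on the OPC side and Ptgs2 rose in both lines. Gatm, an enzyme of creatine synthesis, had 3.802 and 3.826 in NSC, 5.18 and 5.02 in NSCL61, 10.9 and 10.7 in OPC and 6.30 and 7.13 in OPCL61. Ptgs2 (cyclooxygenase-2) rose by 7.75 ± 0.30 in OPCL61 and 1.19 ± 0.30 in NSCL61 (limma adjusted p = 1.38e-07 and 0.0116), and its gap went from -8.06 ± 0.30 to -1.49 ± 0.30. Col8a1, a short-chain collagen, and Filip1l kept line gaps of -1.11 ± 0.30 and -1.35 ± 0.31 after parental gaps of -7.11 ± 0.30 and -7.00 ± 0.31. Fut9, a fucosyltransferase of neural glycans, kept 1.16 ± 0.27 of 6.29 ± 0.27.

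Among 11 measured myelin genes 6 had a gap with OPC higher, and 5 closed: Mbp, Cnp, Ugt8a, Bcas1 and Sirt2. Aspa, which breaks down N-acetylaspartate, opened. Among 14 astrocyte genes 12 had a gap, of which 5 closed, 3 narrowed and 4 were unresolved, where 58.1% of gaps closed and 5.95% narrowed over all genes. The median of the astrocyte list went from 4.17 to 0.60. S100b, Slc1a2, Ndrg2, Acsbg1 and Gja1 closed, the last with NSC higher before. Gfap, the astrocyte filament, was unresolved, with a difference of changes of 1.51 ± 0.59 (limma adjusted p = 0.0717).

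Of 14 neural stem cell genes 7 had a gap (24.6% of all genes did), all with OPC higher, and 5 closed (58.1% of all gaps did): Sox2 and Lhx2 on the NSC side, Hes5 and Sox3 on the OPC side and Notch1 on both. Of 13 Sox genes 9 had a gap (24.6% of all genes did), again all with OPC higher. Sox2, Sox3, Sox4, Sox5, Sox6, Sox8, Sox11 and Sox21 closed (8 of 9, with 58.1% over all gaps) and Sox1 narrowed. Prom1 had no called gap in either comparison and rose in both lines. It had 9.08 and 8.89 in NSCL61 and 8.57 and 8.22 in OPCL61, against 3.49 and 3.73 in OPC.

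Of the 26 collagen and matrix genes 24 passed the filter. All 24 had a parental gap, 23 with NSC higher, and 20 closed, where 24.6% of all genes had a gap and 58.1% of all gaps closed. The median went from -7.44 to 0.18. Thbs2 narrowed and Col6a2 crossed. Of 12 pericyte and fibroblast genes 10 had a gap and 9 closed, Pdgfrb and Thy1 among them, with the median going from -4.34 to -0.17. Pdgfrb, the PDGF receptor of pericytes, fell by 7.15 ± 0.21 in NSCL61 (limma adjusted p = 4.49e-08) and had a line gap of -0.89 ± 0.21. Its means of 4.17 in NSCL61 and 3.28 in OPCL61 lay below 5.183. Whether a difference between the lines remained in Pdgfrb therefore cannot be read from these signals. Of 8 transcription factors of epithelial-mesenchymal transition 7 had a gap. Snai1, Twist2 and Prrx2 closed, Snai2 and Twist1 narrowed, Prrx1 crossed and Zeb1 stayed. Over all called gaps these shares were 58.1%, 5.95%, 4.21% and 9.71%.

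Of 9 annexins 7 had a gap (24.6% of all genes did), all with NSC higher. Anxa1, Anxa2 and Anxa7 closed (3 of 7, with 58.1% over all gaps), Anxa3, Anxa5 and Anxa6 narrowed and Anxa4 stayed. Of 9 S100A genes 6 had a gap. S100a4, S100a6, S100a10 and S100a16 closed and S100a1 and S100a13 stayed, where 58.1% and 9.71% of all called gaps did. S100a5 and S100a8 opened, as did 3.05% of all genes tested. All 6 measured caveolar genes had a gap with NSC higher. Ehd2 closed, Cav1, Cavin1 and Cavin3 narrowed, Cav2 stayed and Cavin2 crossed. Over all called gaps 58.1% closed, 5.95% narrowed, 9.71% stayed and 4.21% crossed. The median of the caveolar list went from -4.72 to -1.78. Cav1, the main caveolar coat protein, named after its values were seen, had 10.53 and 10.9 in NSCL61 and 4.99 and 5.14 in OPCL61.

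Of 20 genes of MAP kinase output 13 had a gap, with 6 closed, 3 stayed, 1 narrowed and the others unresolved. Hmga2, Fosl1 and Etv5 closed, while Dusp5, Spry1 and Epha2 stayed. Of 11 YAP-TEAD targets 10 had a gap with NSC higher, 3 closed, 3 narrowed and 2 stayed. Beside both lists, 24.6% of all genes had a gap, and of these gaps 58.05% closed, 5.95% narrowed and 9.71% stayed. Of 25 cell cycle genes 21 were never apart, which held for 69.9% of all genes tested. Only 2 microglial and 3 endothelial markers were measured, and among them Flt1 alone had a gap, which closed.

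Of 14 measured neuronal genes, 10 had a gap with OPC higher, of which 4 closed, 2 narrowed, 2 stayed and the others were unresolved. Over all called gaps 58.1% closed, 5.95% narrowed and 9.71% stayed. Nefl, the light neurofilament chain, had 3.90 and 3.83 in NSC, 10.7 and 10.1 in NSCL61, 5.87 and 6.04 in OPC and 12.3 and 12.7 in OPCL61. It rose by 6.52 ± 0.23 in NSCL61 and 6.57 ± 0.23 in OPCL61 (limma adjusted p = 1.49e-07 and 8.97e-08), so its gap of 2.09 ± 0.23 stayed at 2.15 ± 0.23. Nefl lay below 5.183 in NSC, so its parental gap may be a lower bound. A gap that stayed then cannot be told from one that narrowed. Elavl4, an RNA-binding protein of neurons, had 4.25 and 4.05 in NSC, 5.21 and 5.48 in NSCL61, 7.18 and 7.47 in OPC and 6.15 and 5.05 in OPCL61, and closed from both sides. Tubb3, neuronal beta-tubulin, opened, as it fell by 3.15 ± 0.36 in NSCL61 alone (limma adjusted p = 0.000137).

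B2m, H2-K1 and H2-D1, genes of antigen presentation, closed. B2m, the light chain of MHC class I, had 13.1 and 12.9 in NSC, 12.7 and 12.4 in NSCL61, 10.8 and 10.51 in OPC and 12.4 and 12.3 in OPCL61. H2-K1 and H2-D1, class I heavy chains with closely related sequences whose signals may be shared, rose in OPCL61 by 1.72 ± 0.31 and 1.74 ± 0.29 (limma adjusted p = 0.00161 and 0.000995). In the same interferon list of 10 genes, Bst2 stayed at -2.73 ± 0.21 and Ifit3 widened from -1.24 ± 0.17 to -2.75 ± 0.17. Of 12 integrins 7 had a gap (24.6% of all genes did). Itga1, Itga5 and Itgb3 closed (3 of 7, with 58.05% over all gaps), Itga8 crossed, Itgb8 narrowed and Itgb1 and Itgb5 were unresolved. Axl, a receptor tyrosine kinase counted among the YAP-TEAD targets, had 8.37 and 8.17 in OPC and 11.4 and 11.4 in both OPCL61 and NSCL61.

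**Figure D4:**
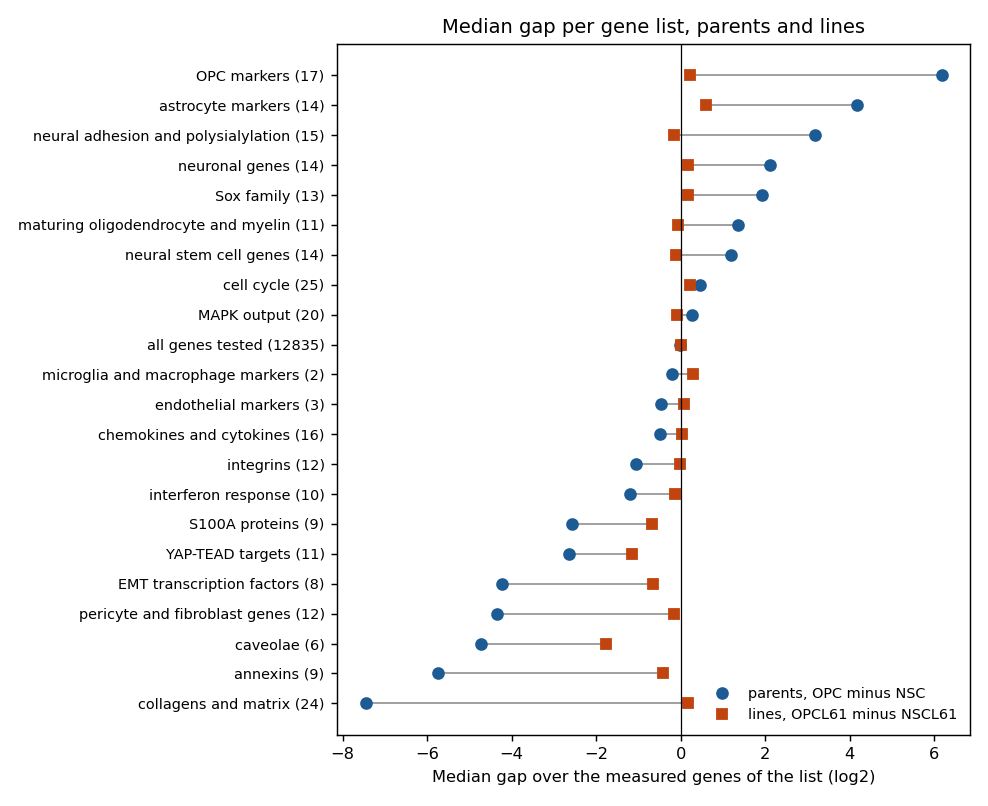
Points show, for each gene list, the median gap between the parents (OPC minus NSC) and between the lines (OPCL61 minus NSCL61) on the log2 scale. OPC markers move from 6.18 to 0.22 and collagens and matrix from -7.44 to 0.18, while caveolae keep -1.78 of -4.72.

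In 133 genes (1.04% of those tested) the lines did not meet but changed places, and in 66 of these both lines had a called change. In 61 of the 133 (45.9%) both lines had a called change and the directions were opposite. Nrcam, a neuronal cell adhesion molecule of the immunoglobulin family, had 4.002 and 3.39 in NSC and 11.2 and 10.9 in NSCL61. It had 9.23 and 9.04 in OPC and 6.86 and 5.52 in OPCL61. OPC was above NSC in every array, and NSCL61 was above OPCL61 in every array. NSCL61 rose by 7.37 ± 0.48 and OPCL61 fell by 2.95 ± 0.48 (limma adjusted p = 4.68e-06 and 0.000810). The gap went from 5.44 ± 0.48 to -4.88 ± 0.48 and the difference of changes of Nrcam was 10.32 ± 0.68 (limma adjusted p = 5.23e-06). A second Nrcam probe set had gaps of 3.156 and -2.999.

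Other neural adhesion genes crossed too. Pcdh8, a protocadherin, had 3.36 and 3.46 in NSC, 10.75 and 10.51 in NSCL61, 7.73 and 8.54 in OPC and 6.72 and 6.99 in OPCL61. St8sia4, an enzyme that adds polysialic acid, went from a gap of 3.17 to -3.31. Of 15 genes of neural adhesion and polysialylation, 9 had a parental gap, of which 5 closed, 1 narrowed and 3 crossed, against 58.1%, 5.95% and 4.21% of all called gaps. Cntn1 (contactin-1) was among those that closed, with 10.3 and 11.04 in OPC and values from 4.48 to 5.04 in the other groups. Lrrn1, a leucine-rich repeat membrane protein and the OPC marker that crossed, fell by 7.27 ± 0.21 in OPCL61 and rose by 1.76 ± 0.21 in NSCL61 (limma adjusted p = 2.83e-08 and 0.000196). Its means of 2.975 in NSC, 4.73 in NSCL61 and 3.19 in OPCL61 all lay below 5.183. Whether the lines differ in Lrrn1, and so whether it crossed, cannot be read from these signals.

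Crossings in the other direction, from NSC higher to OPCL61 higher, numbered 79 (0.616%). Ccl2, a chemokine that draws monocytes, had 9.43 and 10.4 in NSC, 8.95 and 8.15 in NSCL61, 6.14 and 5.23 in OPC and 11.7 and 11.9 in OPCL61. Ccl7 crossed with it, from a gap of -4.74 ± 0.46 to 2.15 ± 0.46. Itga8, an integrin alpha chain, had 9.09 and 10.0 in NSC, 5.76 and 6.16 in NSCL61, 6.25 and 6.05 in OPC and 9.50 and 10.1 in OPCL61. OPCL61 ended at the NSC level of Itga8 and NSCL61 at the OPC level. Rnase4 and Arhgdib crossed likewise, with differences of changes of -9.06 ± 0.54 and -8.27 ± 0.80 (limma adjusted p = 2.96e-06 and 5.10e-05). Cavin2 had 10.4 and 11.7 in NSC, 3.76 and 3.86 in NSCL61 and 4.27 and 4.37 in OPC, but 9.67 and 5.70 in OPCL61, so that its line gap of 3.87 ± 1.00 rests mostly on the first OPCL61 array.

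Stayed gaps, called in both comparisons in the same direction with a difference of changes under 1, were 307 (2.39% of those tested). In 193 of them neither line had a called change, and in 76 both lines changed in the same direction. In 74 of the 307 (24.1%) the lower group lay below 5.183 in both gaps. Ctsz, a lysosomal cathepsin, had 11.4 and 11.6 in NSC, 11.8 and 11.6 in NSCL61, 2.86 and 2.60 in OPC and 2.77 and 2.72 in OPCL61. Its gap was -8.77 ± 0.14 before and -8.97 ± 0.14 after, with no overlap between the stem and OPC arrays. Ctsz, Lgals3 and Plp2 had means below 5.183 in both OPC groups, so each gap may be a lower bound and its change is not measured on the low side. Lgals3 (galectin-3) kept a gap of -7.60 ± 0.44 as -7.80 ± 0.44, and Plp2, a membrane protein of the endoplasmic reticulum, kept -6.74 ± 0.14 as -7.12 ± 0.14. These 3 genes were high in both stem groups and low in both OPC groups.

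Grb10, an adaptor of the insulin receptor and an imprinted gene, fell in both lines. It had 12.1 and 11.9 in NSC, 9.96 and 10.1 in NSCL61, 5.68 and 5.79 in OPC and 4.11 and 3.98 in OPCL61. Its gap of -6.29 ± 0.24 stayed at -5.96 ± 0.24 by the probe set used, but narrowed by a pair of other probe sets, from -5.34 to -2.72 and from -3.93 to -1.72. Among genes higher in OPC, Kcnk1, a potassium channel, kept 3.26 ± 0.21 of 3.64 ± 0.21, and P2rx7, an ATP-gated channel, kept 3.01 ± 0.17 of 3.49 ± 0.17. P2rx7 had 5.06 and 4.83 in NSC, 6.36 and 6.21 in NSCL61, 8.62 and 8.25 in OPC and 9.50 and 9.10 in OPCL61. Homer2, a synaptic scaffold, and Tmem35a also stayed, with line gaps of 3.28 ± 0.25 and 2.80 ± 0.40. Kcnk1 and Homer2 had means below 5.183 in both stem groups, so both of their gaps may be lower bounds. The same holds for the parental gap of P2rx7, low in NSC, and the line gap of Grb10, low in OPCL61.

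Between the lines 392 gaps opened (3.05% of those tested) where the parents had differed by less than 2-fold without a call, 221 with NSCL61 higher (1.72%) and 171 with OPCL61 higher (1.33%). In the first set NSCL61 rose in 167 genes and OPCL61 fell in 34. Il5ra, the interleukin-5 receptor alpha chain, had 3.26 and 3.40 in NSC, 10.6 and 10.7 in NSCL61, 3.13 and 2.94 in OPC and 5.05 and 5.59 in OPCL61. It rose by 7.33 ± 0.17 in NSCL61 and 2.29 ± 0.17 in OPCL61 (limma adjusted p = 1.09e-08 and 6.39e-06). Cd93, a C-type lectin receptor, had 10.4 and 10.1 in NSCL61 and lay between 3.97 and 6.09 in the other groups. Fut4, the enzyme of the stem cell antigen SSEA-1, had 7.30 and 7.29 in NSCL61 and 3.73 and 3.40 in OPCL61. Pax6, a progenitor transcription factor, opened with a line gap of -1.89 ± 0.47 (limma adjusted p = 0.0155). Parvb, a focal adhesion protein, opened with a line gap of -4.87 ± 0.31 (limma adjusted p = 6.10e-06). Its difference of changes of 4.01 ± 0.43 ranged from 2.49 to 4.52 over 17 alternatives.

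Ndn and Mcts1 were lost in OPCL61 alone. Ndn (necdin), an imprinted growth suppressor of neurons, had 10.0 and 9.16 in NSC, 10.4 and 10.4 in NSCL61, 9.89 and 10.2 in OPC and 3.27 and 3.49 in OPCL61. It fell by 6.68 ± 0.26 (limma adjusted p = 1.38e-07), and 4 other Ndn probe sets gave line gaps from -6.98 to -4.02. Mcts1, a translation re-initiation factor, had 10.6 and 10.7 in NSC, 10.9 and 10.9 in NSCL61, 9.37 and 10.1 in OPC and 4.89 and 4.58 in OPCL61. These were the only 2 of the 12835 genes with a mean below 5.183 in OPCL61 and above 8 in the other 3 groups.

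With OPCL61 higher, OPCL61 rose in 78 genes and NSCL61 fell in 64. Krt6a, an epithelial keratin, had 11.4 and 12.1 in OPCL61 and lay between 5.65 and 6.53 in the other groups. Bnc1 (basonuclin), a zinc finger protein of squamous epithelium, had 8.53 and 8.52 in OPCL61 and lay between 2.95 and 3.42 elsewhere. Krt6a rose by 6.06 ± 0.22 and Bnc1 by 5.48 ± 0.15 (limma adjusted p = 9.77e-08 and 1.88e-08). Mgst2, a membrane glutathione transferase, had 10.7 and 11.1 in OPCL61, 6.91 and 6.96 in NSCL61, 5.62 and 6.08 in NSC and 4.56 and 5.44 in OPC. Syt4, a vesicle protein, had 9.65 and 7.22 in OPCL61, so its line gap of 4.41 ± 0.61 is set by arrays that differ. Pdlim4, an actin-binding protein, had 9.97 and 7.44 in OPCL61 and 4.32 and 4.45 in NSCL61.

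Widened gaps were 31 (0.242% of those tested). Rhox5, a homeobox gene of the X chromosome known from germline tissue, had 5.13 and 5.21 in NSC, 6.81 and 6.73 in NSCL61, 6.97 and 7.03 in OPC and 12.92 and 13.04 in OPCL61. Its gap went from 1.83 ± 0.12 to 6.21 ± 0.12, with a difference of changes of -4.38 ± 0.17 (limma adjusted p = 2.71e-07). Gstp1, a cytosolic glutathione transferase, had 10.7 and 11.2 in OPC and 6.28 and 6.66 in OPCL61, while NSC had 12.1 and 11.9 and NSCL61 had 11.6 and 11.4. Ereg (epiregulin), a ligand of the EGF receptor, had 8.27 and 7.41 in NSC and 11.2 and 11.1 in NSCL61, and lay between 3.09 and 3.72 in both OPC groups. Its rise of 3.27 ± 0.57 was in the stem line (limma adjusted p = 0.00186). Ptn (pleiotrophin), a secreted growth factor, fell in both lines, by 5.73 ± 0.38 in NSCL61 and 2.77 ± 0.38 in OPCL61 (limma adjusted p = 5.16e-06 and 0.000290).

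The AST and ASTL61 arrays enter neither gap. ASTL61 lay within 1 of the mean of NSCL61 and OPCL61 for 87.1% of all genes and for 1372 of the 1835 closed genes (74.8%). For genes that fell in OPCL61 on the OPC side the count was 577 of 607 (95.1%), and for genes that rose there it was 255 of 314 (81.2%). The AST parent was already at that level, with a median AST level minus the mean of both lines of -0.05 in the 607 genes and -0.24 in the 314. From AST to ASTL61, 0 of the 607 and 6 of the 314 changed by at least 1, so nearness of ASTL61 is also nearness of AST. Such changes were rare over all genes too, with 198 of 12835 up and 13 down by at least 1. For genes that rose in NSCL61 on the NSC side, ASTL61 lay within 1 in 55 of 121 (45.5%). For genes that fell there it did so in 182 of 329 (55.3%). In the latter set ASTL61 was at least 1 above the mean in 145, and over all genes in 755 of 12835. Lox, for example, had 12.6 on both ASTL61 arrays and 12.32 and 11.85 in AST. Bex4 had 4.21 and 3.82 in ASTL61 and 3.92 and 4.34 in AST. Of the genes opened with NSCL61 higher, ASTL61 was nearer OPCL61 in 168 of 221. Of those opened with OPCL61 higher, ASTL61 was nearer OPCL61 in 68 of 171. The line nearer to ASTL61 was not counted over all genes.

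**Figure D5:**
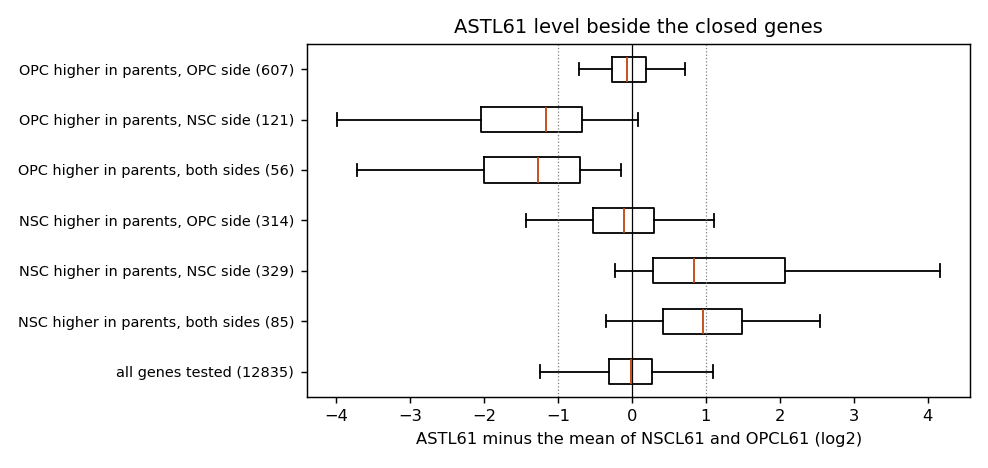
Box plots show the ASTL61 mean minus the mean of NSCL61 and OPCL61 on the log2 scale, by class and side of closed genes, with boxes at the quartiles and whiskers at the 5th and 95th percentiles. Genes that fell on the OPC side centre on -0.07, while genes that fell on the NSC side centre on 0.84 and genes that rose on the NSC side on -1.16.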

How the data were processed

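The data are the authors' deposited series matrix of 12 arrays, in log2 units. Per the labels, total RNA was labelled with biotin by in vitro transcription. How signals were summarised and normalised is not given in the sources used here. The medians of the arrays ran from 5.157 to 5.211, so the deposited log2 values were used unchanged. The number of arrays limits the precision.

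Of 45101 probe sets, 34958 had 1 gene symbol in a platform table checked against RefSeq (GRCm38.p6), and 932 with several were left out. A probe set was kept where a group mean passed 5.183, the median of all values. Where a gene had several, the one highest on average over all arrays was used. The 6 groups were fitted together with limma (version 3.58.1, R 4.3.3), with empirical Bayes moderation and Benjamini-Hochberg adjustment over 12835 genes. A call needs an adjusted p under 0.05 and a log2 difference of at least 1. SE is the moderated standard error, and intervals are at 95%. The fit was also run on simulated data, with results that are not given here.

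The text names the largest genes of each class, ranked by the difference of changes, by the line gap for opened genes and by the smaller of both gaps for stayed genes, where arrays do not overlap. It also names the leading closed, stayed and opened members of 21 gene lists. Ccl2, Ccl7, Itga8, Fabp7, Gfap, Cav1, Olig1, St8sia4, Prom1, Nes, Pdgfra, Thy1, Sox10 and Cspg4 were named after their values were seen. So were list members given by class alone. The members and lists were chosen with earlier results of these data known. Alternatives covered normalisation, filters, probe set choice, thresholds, left-out arrays and a replicate block.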

Additional observations from a re-analysis of the deposited data

Results flagged for a closer look

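The change of a gene differed between the stem and the OPC line, by the limma test of that difference, in 3097 genes. In 229 genes both lines had a called change and the directions were opposite. For the 4 marker genes, which were chosen with this comparison known, the difference of changes was 10.32 for Nrcam, 8.28 for Gpm6a, -9.47 for S100a6 and -10.18 for Anxa1. Both lines had called changes in opposite directions in Nrcam and Anxa1, and NSCL61 had none in S100a6 and Gpm6a. The rule for a sample far from the others needs at least 4 arrays in a group and was not applied, while the fits without each array in turn are given below.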

How the results depend on the processing

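The titles number the arrays within each group. The NSCL61 titles carry a further number that the labels do not explain, and their first number was read as the replicate. With a replicate block the counts were 3099 for the difference of changes, 3159 for the parental gap and 1321 for the line gap. There were 1836 closed, 303 stayed and 397 opened genes, and 116 of 116 named genes kept their call. The correlations of replicate deviations between groups ran from -0.196 to 0.105. Whether arrays with the same number were handled together cannot be read from them. Without the size threshold the counts were 4868, 6612 and 3423 for the difference of changes, parental and line gaps, with 2806 closed, 339 narrowed, 508 crossed, 1183 stayed, 64 widened and 782 opened. With a size threshold of 2 they were 1336, 1424 and 388, with 927 closed, 43 narrowed, 23 crossed, 113 stayed, 5 widened and 129 opened. Raising the filter to 7.562, the 75th percentile, which tests fewer genes, gave 232 opened and a ratio of line to parental gaps of 0.533. Leaving out 1 array at a time gave 2831 to 3203 genes for the difference of changes, 3031 to 3184 parental gaps, 1092 to 1391 line gaps, 1690 to 1859 closed, 137 to 203 narrowed, 95 to 141 crossed, 247 to 323 stayed, 25 to 37 widened and 321 to 444 opened. The sides of closed genes ranged over 851 to 972 (OPC), 393 to 483 (NSC) and 118 to 139 (both), and the ratio from 0.545 to 0.582, the highest without OPCL61 replicate 2. In all 8 such fits 1298 of 1835 closed genes (70.7%) kept their class, as did 145 of 307 stayed, 198 of 392 opened, 59 of 133 crossed, 99 of 188 narrowed and 16 of 31 widened. Requiring the interval of the line gap to lie within ±1, an alternative added after seeing the data, left 1280 closed. Over 17 alternatives of the 116 named genes, 1926 values kept their side of the threshold, 14 gained it, 23 lost it and 0 reversed. The causes were not tested.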

Other observations

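Some closed genes are neighbours in the genome. Aspn, Omd and Ogn, small leucine-rich proteoglycans of the matrix that lie in a row, all had NSC higher before and line gaps between -0.28 and 0.26. They were chosen after their values were seen, and no test of clustering was made.

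The groups also differ in how many genes set them apart alone, with a group mean above 8 counted as high and one below 5.183 as low. OPC alone was high in 45 genes and low in 38, and NSC alone was high in 42 and low in 12. NSCL61 alone was high in 6 genes and low in 1, which was Igfbp2, a binding protein of insulin-like growth factors. Its NSC arrays differed, at 12.51 and 8.02, and its NSCL61 arrays had 5.19 and 4.89. OPCL61 alone was high in 2, Bnc1 and Syt4, and low in 2, Mcts1 and Ndn. The X chromosome held 3.21% of the placed genes and 4.04% of the closed ones.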
